A study of Mus musculus with 17 samples.

Results

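The naive pluripotency transcription factors Nanog, Esrrb, Tfcp2l1, Tbx3, Prdm14, Zfp42, Nr0b1 and Spic were followed through 7 days of culture in 2i. They are 8 of the 20621 genes in a table of RNA-seq read counts, picked by gene symbol as factors that mark or maintain the naive state, and all 8 were among the 15365 genes abundant enough to be tested. The cells were E14, a mouse embryonic stem cell line, in a mutant form (RNAPII-mut, genotype slow/slow, an RNA polymerase II that elongates slowly according to the title of the study) and in the WT form. Every culture was grown without feeder cells on gelatine, in medium with 10% fetal bovine serum and 1000 U/mL LIF. Groups of both genotypes were cultured for 0 days in 2i (serum and LIF alone) or for 1, 2 or 7 days after 1 µM PD0325901, an inhibitor of MEK, and 3 µM CHIR99021, an inhibitor of GSK3, had been added to that medium. There were 17 libraries, 3 of the mutant at day 1 and 2 in each of the other 7 groups. How many clones the mutant line comprised was not given in the sources used here, so effects of the mutation and of the clone cannot be told apart. Counts per gene do not show which form of the polymerase was made. Nothing in the labels said that replicates came from separate cultures, so p-values measure the spread between these libraries, which may be technical.

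Mouse embryonic stem cells in serum and LIF are a shifting mixture of naive cells and cells that drift towards the formative state. LIF acts through STAT3, and 2i adds a block of the ERK pathway by the MEK inhibitor and a release of the Wnt arm by the GSK3 inhibitor, which stabilises β-catenin and relieves repression by Tcf7l1. The naive factors receive these inputs: Tfcp2l1 (a CP2-family factor) is known as a target of LIF and STAT3, Esrrb (an orphan nuclear receptor) as a target of the GSK3 and Tcf7l1 arm, and Nanog (a homeodomain factor) and Tbx3 (a T-box factor) can sustain self-renewal when overexpressed. Prdm14 is a PR-domain protein that represses the genes of de novo DNA methylation and FGF receptor signalling. Zfp42, also called Rex1, is a zinc-finger protein best known as the reporter gene of naive cells. Nr0b1, also called Dax1, is an atypical nuclear receptor that acts as a co-repressor. Spic is an ETS-family factor related to PU.1 and is known mainly from macrophages of the spleen.

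All 8 are protein-coding genes in GENCODE M21 (GRCm38), which places Nanog at chr6:122707489-122714633 (plus strand), Esrrb at chr12:86361117-86521628 (plus strand), Tfcp2l1 at chr1:118627945-118685168 (plus strand), Tbx3 at chr5:119670669-119684724 (plus strand), Prdm14 at chr1:13113457-13127163 (minus strand), Zfp42 at chr8:43295063-43306980 (minus strand), Nr0b1 at chrX:86191764-86195947 (plus strand) and Spic at chr10:88674772-88685015 (minus strand). The table has 1 count per gene symbol and library. Promoters were available for 6 of the 8 genes in the RefSeq table (build GRCm38.p6), each as 300 bases that run 5′ to 3′ from 250 bases before the start of the gene to 50 after it. Those of Tbx3 and Prdm14 were not in it, and the RefSeq start of Spic lies inside the GENCODE span of the gene. RefSeq listed 2 promoters each for Nanog and Esrrb, and only the first listed of each was searched. The promoters of Spic, Tfcp2l1 and Nanog, which rose in 2i, are printed with that of Zfp42, which did not pass the test with 2i on any day, so that their letters can be set side by side. Capitals mark matches to the motifs searched on both strands.
Spic (chr10:88682974-88683273, minus strand), 5′ to 3′:
Spic: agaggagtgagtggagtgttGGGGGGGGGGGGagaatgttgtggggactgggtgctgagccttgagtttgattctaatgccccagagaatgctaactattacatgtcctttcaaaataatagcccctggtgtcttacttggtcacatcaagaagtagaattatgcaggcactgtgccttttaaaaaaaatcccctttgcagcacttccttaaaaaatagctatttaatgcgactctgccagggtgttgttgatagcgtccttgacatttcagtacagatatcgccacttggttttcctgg
Tfcp2l1 (chr1:118627695-118627994, plus strand), 5′ to 3′:
Tfcp2l1: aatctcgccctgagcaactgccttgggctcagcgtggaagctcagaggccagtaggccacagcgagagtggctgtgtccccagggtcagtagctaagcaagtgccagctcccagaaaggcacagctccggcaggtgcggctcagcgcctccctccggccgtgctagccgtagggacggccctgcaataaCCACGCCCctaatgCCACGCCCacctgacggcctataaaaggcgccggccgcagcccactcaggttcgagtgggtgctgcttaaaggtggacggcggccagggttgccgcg
Nanog (chr6:122707239-122707538, plus strand), 5′ to 3′:
Nanog: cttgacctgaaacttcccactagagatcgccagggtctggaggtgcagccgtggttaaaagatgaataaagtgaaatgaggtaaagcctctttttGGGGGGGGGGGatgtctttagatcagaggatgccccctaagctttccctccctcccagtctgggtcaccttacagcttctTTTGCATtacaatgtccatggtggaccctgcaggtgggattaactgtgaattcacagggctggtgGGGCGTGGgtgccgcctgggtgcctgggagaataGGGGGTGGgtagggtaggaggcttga
Zfp42 (chr8:43306960-43307259, minus strand), 5′ to 3′:
Zfp42: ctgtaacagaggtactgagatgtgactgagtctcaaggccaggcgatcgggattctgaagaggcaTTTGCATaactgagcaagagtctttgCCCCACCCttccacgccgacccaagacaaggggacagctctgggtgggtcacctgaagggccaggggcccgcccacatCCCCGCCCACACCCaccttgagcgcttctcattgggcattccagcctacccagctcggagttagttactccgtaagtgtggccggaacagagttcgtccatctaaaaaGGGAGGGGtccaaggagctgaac

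The 6 motifs searched were part of the octamer bound by POU factors (ATGCAAA), a nuclear receptor half-site (AAGGTCA), a STAT palindrome (TTCNNNGAA), a TCF/LEF core (CTTTGA), a GC-rich KLF box (GGGNGNGG) and an ETS core (GAGGAAG). They were picked after the promoters had been seen, so a match is a description of these letters only. ATGCAAA, in capitals as its reverse complement, stood 75 bases before the start of Nanog and 185 before that of Zfp42, and 4.63% of the 32851 promoters in the table hold it. The GC-rich box was in all 6 promoters and in 49.5% of the table; in Spic it lay only in a run of G, and in Nanog 4 of its 6 overlapping matches did. Tfcp2l1 had 2 GC-rich boxes, both on the opposite strand, at 61 and 47 bases before the start. Of the promoters not printed, Esrrb held a STAT palindrome (8.3% of the table) 178 bases before the start and Nr0b1 a TCF/LEF core (16%) 139 bases before it. The nuclear receptor half-site (4.72% of the table) and the ETS core (13.6%) were in none of the 6 promoters searched.

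Spic, Tfcp2l1, Nanog and Prdm14 rose with 2i in both genotypes at day 7, while Esrrb, Zfp42, Nr0b1 and Tbx3 did not pass the test. Values are CPM, counts relative to library size after TMM scaling. Differences are log2 fold changes with their SE from edgeR's quasi-likelihood fit over all 17 libraries. The threshold for a call was an adjusted p (Benjamini-Hochberg, over all 15365 genes) under 0.05. At day 7 against day 0, 4 of 8 rose and 0 fell in the mutant, where 7.2% of all genes rose and 6.96% fell, and 4 of 8 rose and 0 fell in WT, where 6.62% rose and 6.1% fell. The median log2 fold change over the 8 genes was 1.58 in the mutant and 1.33 in WT, against 0 and -0.00544 over all genes tested. At day 2, 3 of 8 had risen in the mutant (1.71% of all genes rose and 1.21% fell) and 4 of 8 in WT (1.16% and 0.996%). At day 1, 3 of 8 had risen in the mutant (0.69% of all genes rose and 0.716% fell) and 1 of 8 in WT (0.13% and 0.0716%), and 0 had fallen at either day in either genotype. Without adjustment, a p under 0.05 was reached in either direction by 4, 5 and 6 of the 8 in the mutant at days 1, 2 and 7 and by 4, 5 and 5 in WT. Of all 15365 genes, 2030, 2302 and 4385 reached it in the mutant and 1293, 2622 and 4520 in WT. The comparisons of the 3 days within a genotype share its day 0 libraries. Where libraries of 1 group are said below to lie above or below those of another, this is a description only. The share of all genes with ranges apart was not counted. In such bulk samples, fewer cells that make a transcript and less of it per cell cannot be told apart.

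Before the genes are taken in turn, 2 libraries stand apart. WT replicate 1 at day 0 and at day 1 had 223 and 180 CPM summed over 16 markers of primitive streak and mesoderm, against 23.1 to 69.4 CPM in the other 15 libraries, and 681 and 1406 CPM over 12 trophoblast markers, against 84.4 to 444 CPM. Acta2, a smooth-muscle actin, was at 151 and 327 CPM in them, and it was 41.5 CPM in WT replicate 1 at day 2 and 0 to 1.95 CPM in the other 14 libraries. Summed over 14 stromal markers, Acta2 among them, the 2 libraries were at 2666 and 3384 CPM, against 1192 to 3174 CPM in the other 15. The stromal sum at day 0 thus lay within the range of the others. So did both sums of primitive endoderm markers (1008 and 1087 CPM) and of neural markers (214 and 232 CPM). Col3a1 and Postn, both stromal markers, had a count of 0 in 9 and in 13 of the 17 libraries. Summed over 8 genes that define embryonic stem cells (Pou5f1, Sox2, Sall4, Lin28a, Dppa5a, Utf1, Fgf4 and Tdgf1), they were at 5003 and 3918 CPM, against 5024 to 8131 CPM in the other 15, and every library held Pou5f1 at 949 CPM or more. Their part in the results was not tested, but each result of the 8 genes is also given without both where that changes its call. The counts over lists of other genes were not taken again without them. Without both, WT days 0 and 1 hold 1 library each, assumed to vary like the other groups. The same holds for any group of 2 with 1 library left out. WT replicate 1 was lower than WT replicate 2 on all 4 days for Tbx3, Zfp42, Esrrb and Tfcp2l1, on days 0, 1 and 2 for Prdm14, on days 1, 2 and 7 for Spic, and on days 0 and 1 for Nanog and Nr0b1. At day 1 it was thus lower for all 8 genes.

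**Figure D1:**
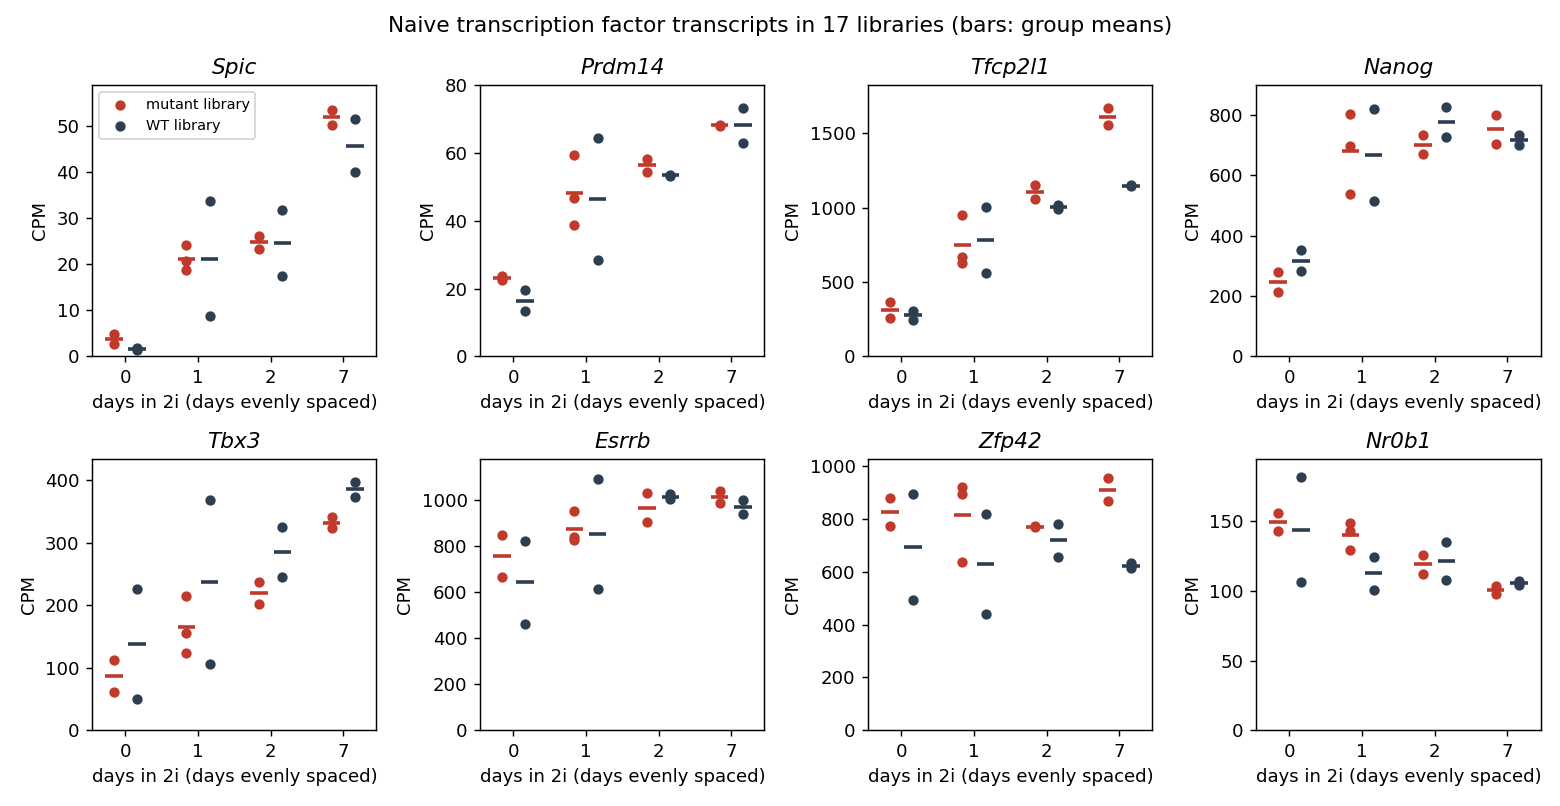
Transcript level of each gene in CPM (vertical axis, linear from 0) by days in 2i (horizontal axis, the 4 days evenly spaced), with 1 point per library, the mutant in red to the left of WT in dark blue, and bars at group means. Spic, Prdm14, Tfcp2l1 and Nanog lie higher in every library of days 1, 2 and 7 than in any day 0 library of their genotype. Zfp42 and Nr0b1 do not. The share of all genes that lie apart in this way was not counted.

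Nanog, the homeodomain factor at the centre of the network, had day 1 values that overlapped those of days 2 and 7. In the mutant it was at 281 and 213 CPM at day 0, 538, 697 and 804 CPM at day 1, 734 and 669 CPM at day 2 and 799 and 705 CPM at day 7. In WT it was at 282 and 351 CPM at day 0, 514 and 819.7 CPM at day 1, 826 and 726 CPM at day 2 and 734 and 699.7 CPM at day 7. Every library with 2i was above every library without it, in both genotypes. In the mutant Nanog rose by 1.46 ± 0.230 at day 1 (edgeR adjusted p = 0.00917), 1.51 ± 0.245 at day 2 (adjusted p = 0.00689) and 1.61 ± 0.245 at day 7, or 3.04-fold (adjusted p = 0.00120). In WT the difference at day 1, 1.08 ± 0.242, did not pass (adjusted p = 0.101), and Nanog rose by 1.29 ± 0.243 at day 2 (adjusted p = 0.0190) and 1.18 ± 0.242 at day 7, or 2.26-fold (adjusted p = 0.00847). Leaving out 1 library ended the call at day 1 in the mutant for either day 0 library (adjusted p = 0.0900 and 0.167) and at day 2 in the mutant for day 0 replicate 2 and day 2 replicate 1 (adjusted p = 0.0870 and 0.0516). In WT it ended the call at day 2 for each of the 4 libraries compared (adjusted p = 0.0554 to 0.118) and at day 7 for WT day 0 replicate 1 (adjusted p = 0.0784). It made the call at day 1 for WT day 1 replicate 1 (1.37, adjusted p = 0.0241).

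Tfcp2l1, the CP2-family target of LIF and STAT3, had a higher mean on each later day. The mutant libraries held 261 and 365 CPM at day 0, 669, 626 and 952 CPM at day 1, 1152 and 1057 CPM at day 2 and 1552 and 1665 CPM at day 7. The WT libraries held 245 and 308 CPM at day 0, 558 and 1001 CPM at day 1, 993 and 1018 CPM at day 2 and 1144 and 1149.8 CPM at day 7. Within each genotype the day 7 libraries were above all earlier ones. Tfcp2l1 rose in the mutant by 1.26 ± 0.255, 1.82 ± 0.276 and 2.36 ± 0.282 on the log2 scale at days 1, 2 and 7 (edgeR adjusted p = 0.0345, 0.00520 and 0.000333), the last being 5.14-fold. In WT it rose by 1.86 ± 0.277 at day 2 and 2.05 ± 0.278 at day 7 (adjusted p = 0.00622 and 0.00105), 4.15-fold at day 7. At day 1 in WT, 1.50 ± 0.274 lay just outside the threshold (adjusted p = 0.0506), and it passed without WT day 1 replicate 1 (1.86, adjusted p = 0.0103). The mutant call at day 1 was lost without any 1 of the mutant libraries other than day 1 replicate 2 (adjusted p = 0.0514 to 0.354), and that at day 2 without mutant day 0 replicate 1 (1.62, adjusted p = 0.0956).

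Spic, the ETS-family factor, was the lowest of the 8 genes per length before 2i and had the largest fold change among them. In the mutant it was at 4.96 and 2.66 CPM at day 0, 20.7, 18.9 and 24.3 CPM at day 1, 23.4 and 26.1 CPM at day 2 and 53.6 and 50.4 CPM at day 7. In WT it was at 1.81 and 1.39 CPM at day 0, 8.75 and 33.7 CPM at day 1, 17.5 and 31.9 CPM at day 2 and 40.0 and 51.5 CPM at day 7, where the fewest reads behind a value were 82. The libraries with 2i were all above those without it, and the WT libraries of day 1 differed from each other 3.86-fold. Spic rose in the mutant by 2.48 ± 0.492 at day 1 (edgeR adjusted p = 0.0300), 2.70 ± 0.519 at day 2 (adjusted p = 0.0161) and 3.77 ± 0.542 at day 7, or 13.6-fold (adjusted p = 0.000871). In WT it rose by 3.73 ± 0.546 at day 1 (adjusted p = 0.0210), 3.95 ± 0.551 at day 2 (adjusted p = 0.00413) and 4.84 ± 0.573 at day 7, or 28.6-fold (adjusted p = 0.000500). It was the only one of the 8 called at day 1 in WT; without WT day 1 replicate 2 that difference was 2.45 (adjusted p = 0.0775), and without WT day 0 replicate 2 it was 3.55 (adjusted p = 0.264). In the mutant the call at day 1 was lost without any 1 of the libraries of days 0, 1 and 7 (adjusted p = 0.0571 to 0.305). That at day 2 was lost without any 1 of the 4 compared (adjusted p = 0.0622 to 0.153). Both calls at day 7 held without any 1 library.

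Prdm14, the repressor of de novo methylation genes, was next lowest per length before 2i. In the mutant its level was 23.7 and 22.5 CPM at day 0, 38.9, 46.8 and 59.4 CPM at day 1, 58.2 and 54.6 CPM at day 2 and 68.4 and 68.0 CPM at day 7. In WT it was 13.3 and 19.5 CPM at day 0, 28.4 and 64.4 CPM at day 1, 53.3 and 53.6 CPM at day 2 and 73.3 and 63.1 CPM at day 7. All libraries with 2i were above those without it. The rise passed at day 7 in the mutant (1.56 ± 0.323, 2.95-fold, edgeR adjusted p = 0.00673). At day 2 in the mutant, 1.29 ± 0.321 missed the threshold at an adjusted p of 0.0501. In WT Prdm14 rose at day 2 (1.70 ± 0.325, adjusted p = 0.0202) and at day 7 (2.05 ± 0.328, 4.15-fold, adjusted p = 0.00263). The day 1 differences were 1.06 ± 0.299 in the mutant and 1.50 ± 0.323 in WT (adjusted p = 0.113 and 0.0922). With the WT libraries that stood apart left out, the WT value was 1.72 and passed, but with 1 library in each of the WT groups compared. Its spread was thus taken from the other groups alone. The mutant values of days 1 and 2, with all mutant libraries kept, then passed too (edgeR adjusted p = 0.0130 and 0.00500). The mutant call at day 7 was lost without either mutant day 0 library (adjusted p = 0.0563 and 0.0577). The WT call at day 2 was lost without either WT day 0 library or WT day 2 replicate 2 (adjusted p = 0.0505 to 0.125). The values that did not pass did so on leaving out 1 WT library in some cases. At day 1 this was WT day 1 replicate 1 in WT (adjusted p = 0.0103) and either WT day 1 library in the mutant (adjusted p = 0.0240 and 0.0254). At day 2 in the mutant it was any 1 of the WT libraries of days 0 and 1 (adjusted p = 0.00972 to 0.0440).

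Tbx3, the T-box factor, had the largest ratio of the 8 between libraries of a group, at WT day 0, though not the largest in every group. In the mutant it was at 60.9 and 112 CPM at day 0, 124, 156 and 215 CPM at day 1, 237 and 202 CPM at day 2 and 323 and 341 CPM at day 7. In WT it was at 50.4 and 226 CPM at day 0, 106 and 368 CPM at day 1, 245 and 326 CPM at day 2 and 374 and 396 CPM at day 7, so that the WT day 0 libraries differed 4.48-fold. The day 7 libraries were above all day 0 libraries in both genotypes. At day 7 the difference was 1.94 ± 0.622 in the mutant (edgeR adjusted p = 0.0548) and 1.48 ± 0.613 in WT (adjusted p = 0.128). Neither passed. Without both WT libraries that stood apart the mutant values, 1.34 at day 2 and 1.94 at day 7, passed (adjusted p = 0.0234 and 0.00125), while the WT value, 0.77, did not (adjusted p = 0.244). The mutant value at day 7 also passed by DESeq2 (adjusted p = 0.00949) and on leaving out any 1 of the WT libraries of days 0 and 1 (adjusted p = 0.0164 to 0.0256). The WT value passed without WT day 0 replicate 2 (2.94, adjusted p = 0.0189) and with a term for the WT replicate number (1.85, adjusted p = 0.00884). The annotation places Tbx3os1 across 697 bases of Tbx3 on the opposite strand, and whether reads were counted by strand was not given in the sources used here, so reads of both cannot be told apart.

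The nuclear receptors Esrrb, a target of the GSK3 arm, and Nr0b1, a co-repressor, did not pass the test at any day in the fit of all libraries. Esrrb was already abundant in serum and LIF. The mutant libraries had 667 and 846 CPM at day 0, 826, 840.3 and 952 CPM at day 1, 1031 and 903 CPM at day 2 and 989 and 1038 CPM at day 7. The WT libraries had 463 and 824 CPM at day 0, 615 and 1093 CPM at day 1, 1003 and 1026 CPM at day 2 and 938 and 999 CPM at day 7. The day 7 libraries were above the day 0 libraries in both genotypes. The difference at day 7 was 0.42 in the mutant, with a 95% interval of -0.17 to 1.01 (edgeR adjusted p = 0.343), and 0.59 in WT, with an interval of -0.003 to 1.18 (adjusted p = 0.172). Without both WT libraries that stood apart, the WT value was 0.23 (adjusted p = 0.517), and without WT day 0 replicate 2 it was 1.07 and passed (adjusted p = 0.0416). With a term for the WT replicate number, the WT values of 0.72 at day 2 and 0.65 at day 7 passed (adjusted p = 0.0470 and 0.0372). The mutant value at day 7 passed when only the groups compared were fitted (0.43, adjusted p = 0.0378).

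Nr0b1 was the one gene of the 8 whose difference at day 7 was negative in both genotypes and larger than its SE. It was at 156 and 143 CPM at day 0, 143, 149 and 129 CPM at day 1, 126 and 112 CPM at day 2 and 104 and 98.0 CPM at day 7 in the mutant. It was at 107 and 182 CPM at day 0, 101 and 124 CPM at day 1, 135 and 108 CPM at day 2 and 107 and 105 CPM at day 7 in WT. Both mutant libraries of day 7 were below both of day 0, and in WT the day 7 and day 0 ranges overlapped. The difference at day 7 was -0.57 ± 0.221 in the mutant (edgeR adjusted p = 0.105, unadjusted p = 0.0230) and -0.44 ± 0.220 in WT (adjusted p = 0.199). Without both WT libraries that stood apart, the WT value was -0.78 and passed (adjusted p = 0.0308); WT day 0 was then a single library, assumed to vary like the other groups. The mutant value, -0.57, then passed as well (adjusted p = 0.0307), as it did without either WT day 0 library alone (adjusted p = 0.0426 and 0.0428). Without WT day 0 replicate 1 alone, the WT value was -0.78 (adjusted p = 0.0458). Without WT day 0 replicate 2 it was -0.0070 (adjusted p = 0.987), so the WT value rests on which day 0 library is used.

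Zfp42, the naive-state reporter gene, showed no change past the test with 2i in either genotype. In the mutant it was at 880.4 and 773 CPM at day 0, 636, 893 and 921 CPM at day 1, 774 and 768 CPM at day 2 and 953 and 868 CPM at day 7. In WT it was at 491 and 894 CPM at day 0, 441 and 818 CPM at day 1, 657 and 783 CPM at day 2 and 613 and 633 CPM at day 7. The groups of all 4 days overlapped with day 0 in both genotypes, and the lowest 2 of the 17 values were those of the WT libraries that stood apart. At day 7 the difference was 0.14 in the mutant with a 95% interval of -0.51 to 0.79 (edgeR adjusted p = 0.810) and -0.15 in WT with an interval of -0.80 to 0.49 (adjusted p = 0.765). Without those libraries the WT value was -0.52 (adjusted p = 0.189).

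**Figure D2:**
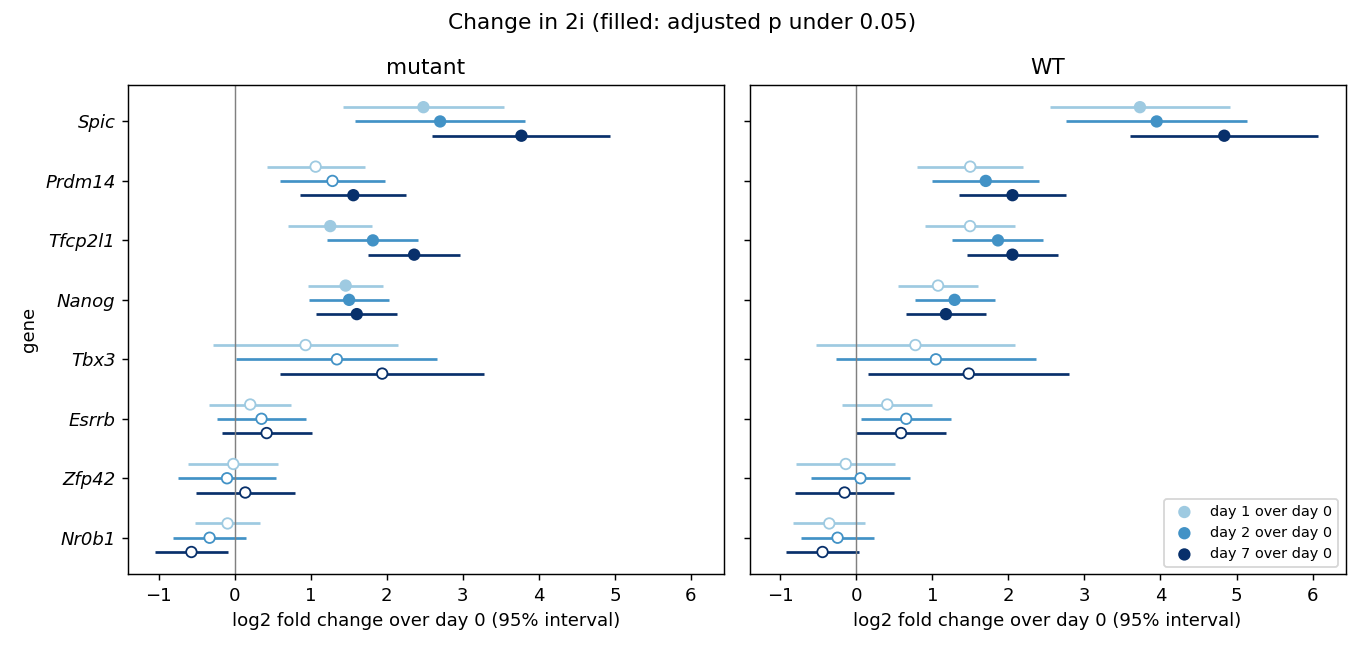
Log2 fold change of each later day over day 0 (horizontal axis) for each gene (rows), with the mutant in the left panel and WT in the right, points from the fit and lines for 95% intervals; filled points passed an adjusted p under 0.05. Spic has the largest values in both panels, 3.77 in the mutant and 4.84 in WT at day 7, and the intervals of Zfp42 cross 0 on all 3 days.

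The steps between the later days were tested on both genotypes together. Averaged over both genotypes, 0 of the 8 genes passed edgeR's test for day 2 against day 1, where 0.0651% of all genes did, and 0 passed for day 7 against day 2, where 1.2% did. An unadjusted p under 0.05 was reached by 1650 of all 15365 genes in the earlier step and by 2219 in the later one. Of the 8, 1 had such a p in each, and DESeq2 called 0 in each. For day 2 against day 1 that gene was Tfcp2l1, with a log2 difference of 0.46 ± 0.181 (adjusted p = 0.391). For day 7 against day 2 it was Spic, with 0.98 ± 0.344 (adjusted p = 0.196), and this passed without both WT libraries that stood apart (adjusted p = 0.0403). Nanog differed by 0.13 in the earlier step and -0.01 in the later one.

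The mutant was compared with WT on each day and over all days. In the fit without a replicate term, none of the 8 genes passed edgeR's test at day 0 (0.28% of all genes passed), day 1 (0.417%), day 2 (0.0716%), day 7 (0.0976%) or averaged over the days (12.8%), and DESeq2 called 0 in each. With no adjustment, a p under 0.05 was reached by 2028 of all 15365 genes at day 0. On days 1, 2 and 7 it was reached by 2216, 928 and 1465, and on average by 4273. Of the 8, 1 had such a p at day 0, 0 on each later day and 1 on average, which does not exceed the share over all genes. At day 0 that gene was Spic, with a log2 difference, mutant over WT, of 1.25 and a 95% interval of 0.15 to 2.35 (adjusted p = 0.310 in edgeR's fit); the mutant libraries were both above the WT ones. Its differences on the later days were 0.003, 0.003 and 0.18, and the libraries of the genotypes overlapped. On average it was Zfp42, with a difference of 0.32 and an interval of 0.001 to 0.64 (adjusted p = 0.178 in edgeR's fit). Without both WT libraries that stood apart the Zfp42 value was 0.13 (adjusted p = 0.437). Without WT day 1 replicate 2 the averages of Zfp42, 0.45, and Spic, 0.68, passed (adjusted p = 0.0414 and 0.0231); with all libraries that of Spic was 0.36 (adjusted p = 0.368). With a term for the WT replicate number, Spic passed at day 0 (1.55, edgeR adjusted p = 0.0404), where 1465 of all genes did. The averages of Zfp42, 0.60, and Spic, 0.77, passed too (edgeR adjusted p = 0.00717 and 0.0373), where 3643 of all genes did.

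At day 7, with 2 libraries a side, the ranges of the genotypes were apart for Tfcp2l1, Zfp42, Tbx3 and Nr0b1, and none of these passed. For Nr0b1 the highest mutant library was at 103.7 CPM and the lowest WT library at 104.6 CPM. The share of all genes with ranges apart was not counted, so this only describes these libraries. Tfcp2l1 averaged 1609 ± 80.1 CPM in the mutant and 1147 ± 4.41 CPM in WT (SD, n = 2 each), a log2 difference of 0.49 with an interval of -0.09 to 1.07, edgeR adjusted p = 0.609. Zfp42 averaged 911 ± 60.5 CPM in the mutant and 623 ± 14.0 CPM in WT (SD, n = 2 each), a difference of 0.55 with an interval of -0.10 to 1.20, edgeR adjusted p = 0.608. Tbx3 differed by -0.21 (interval -1.51 to 1.08) and Nr0b1 by -0.07 (interval -0.55 to 0.40). Averaged over the days, the Tbx3 difference was -0.45 with an interval of -1.08 to 0.19 (edgeR adjusted p = 0.361). Without both WT libraries that stood apart, which were its lowest 2 in WT, the Tbx3 difference was -0.78 and passed (adjusted p = 0.00983), whereas a term for the WT replicate number put it at 0.20 (adjusted p = 0.606). For Nanog the averaged difference was -0.10 with an interval of -0.35 to 0.15, for Esrrb 0.07 (-0.22 to 0.35) and for Prdm14 0.16 (-0.18 to 0.49).

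Markers of some other cell types differed between the genotypes in the same libraries. On average over the days, 11 of 19 primitive endoderm markers, 9 of 14 stromal, 5 of 12 trophoblast and 2 of 16 streak markers were lower in the mutant by edgeR's test, and 0 of each were higher. Over all genes, 7.49% were lower and 5.35% higher, and the 2 of 16 streak markers are near the share that was lower. Of 7 neural markers 1 was higher and 0 were lower, with a median log2 difference of 0.75, and of 8 markers of the 2-cell-like state and 8 genes that define embryonic stem cells 0 passed. Summed per library, the primitive endoderm markers were at 586 to 1297 CPM in the mutant and 1008 to 1736 CPM in WT, and the stromal markers at 1192 to 3174 CPM in the mutant and 1317 to 3384 CPM in WT. Ttr, of the endoderm list, had a count of 0 in 7 of the 17 libraries. Their part in the values of the 8 genes was not tested, and these counts were not taken again without the WT libraries that stood apart.

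**Figure D3:**
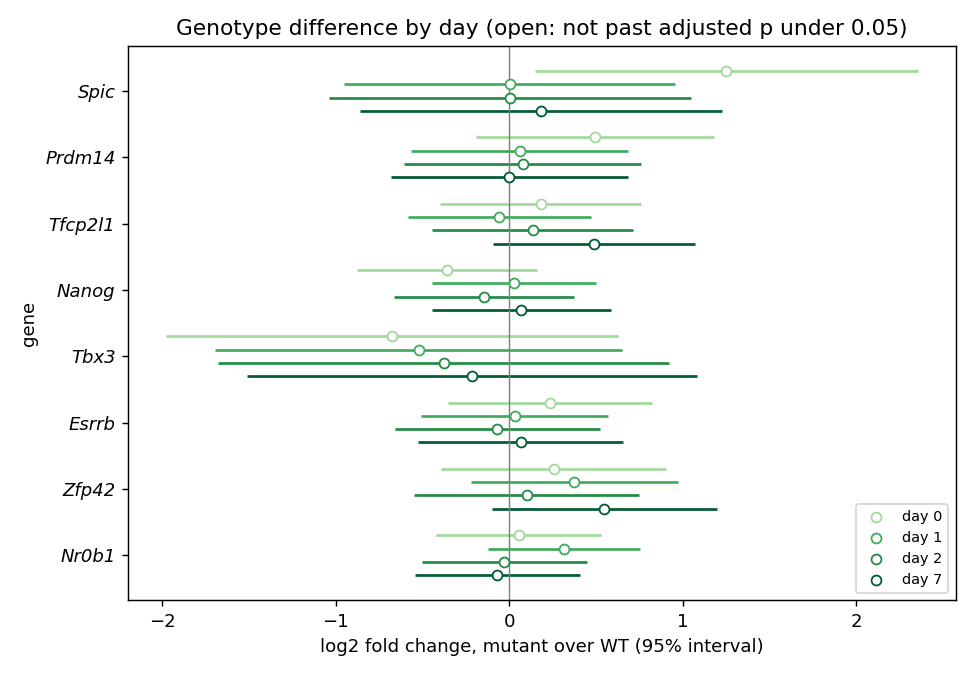
Log2 fold change of the mutant over WT (horizontal axis) for each gene (rows) on each of the 4 days, with points from the fit, lines for 95% intervals and all points open because none passed an adjusted p under 0.05. Spic at day 0, at 1.25, has the only interval that leaves out 0.

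The response to 2i was also compared between the genotypes, as the change from day 0 in the mutant minus that in WT. None of the 8 passed at day 1, 2 or 7, and 0% of all genes did on each day in edgeR's fit. Without adjustment, 0 of the 8 had a p under 0.05 on any day. Of all 15365 genes, 118, 366 and 1178 had such a p on days 1, 2 and 7. DESeq2 called 0 of the 8. Spic had the largest differences in size, at -1.25 (95% interval -2.69 to 0.20), -1.25 (-2.76 to 0.27) and -1.07 (-2.58 to 0.44) on days 1, 2 and 7; these use the day 0 values that lay higher in the mutant. Nanog differed by 0.43 (-0.30 to 1.16) at day 7, Tfcp2l1 by 0.31 (-0.51 to 1.13) and Prdm14 by -0.49 (-1.46 to 0.47). For Tbx3 the interval at day 7 was wide, -1.37 to 2.30.

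Levels can be compared between genes only per length, so CPM were divided by the exon length of each gene in kb (GENCODE M21). Zfp42 was the highest of the 8 in each of the 8 groups, and at day 7 it was at 484 ± 32.2 CPM per kb in the mutant and 331 ± 7.45 in WT (SD, n = 2 each). Spic was the lowest in each group, at 0.992 ± 0.422 CPM per kb in the mutant and 0.416 ± 0.0777 in WT at day 0 and at 13.5 ± 0.585 and 11.9 ± 2.12 at day 7 (SD, n = 2 each). The span from lowest to highest mean was 443-fold in the mutant and 885-fold in WT at day 0, and 35.8-fold and 27.8-fold at day 7. At day 0 the order after Zfp42 was Esrrb, Nanog, Nr0b1, Tfcp2l1, Tbx3 and Prdm14 in the mutant; in WT Nanog stood above Esrrb, and the ranges of those 2 overlapped in both genotypes. The WT ranges of Esrrb and Nr0b1 at day 0 overlapped as well, as did those of Tfcp2l1 and Tbx3. At day 7 Nanog was second in both, at 335 ± 29.9 CPM per kb in the mutant and 319.7 ± 10.8 in WT, where its range overlapped that of Zfp42. The mean of Tfcp2l1 was above that of Nr0b1 from day 1, and at day 7 it was at 170.5 ± 8.49 CPM per kb in the mutant, overlapping Esrrb at 168 ± 5.75; in WT it was at 122 ± 0.468, below Esrrb at 160.1 ± 7.08. Nr0b1 and Tbx3 lay next to each other at day 7, at 55.8 ± 2.22 and 50.1 ± 1.85 in the mutant and 58.6 ± 0.993 and 58.1 ± 2.41 in WT. By the length of the longest transcript in place of all exons, Tbx3 stood above Nr0b1 at day 7, Esrrb above Tfcp2l1 in the mutant at day 7 and Esrrb above Nanog in WT at day 0.

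**Figure D4:**
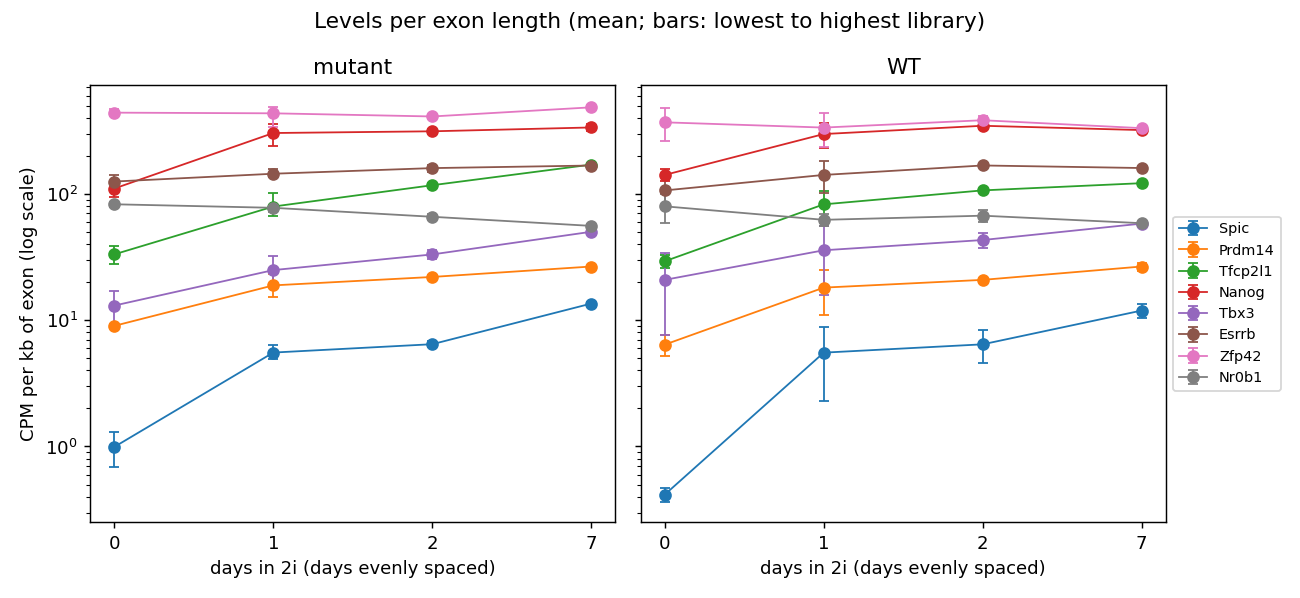
Mean level of each gene per kb of exon in CPM (vertical axis, log scale) by days in 2i (horizontal axis, the 4 days evenly spaced), with the mutant in the left panel and WT in the right and bars from the lowest to the highest library. Zfp42 stays at the top and Spic at the bottom, and the span between them is 443-fold in the mutant and 885-fold in WT at day 0, against 35.8-fold and 27.8-fold at day 7.

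Of 24 further genes (KLF factors, the LIF pathway and pluripotency markers such as Pou5f1 and Sox2), 2 rose and 2 fell in the mutant at day 7, and 3 rose and 2 fell in WT, with a median log2 fold change of 0.01 in the mutant and 0.35 in WT. These counts are near the shares over all genes, of which 7.2% rose and 6.96% fell in the mutant and 6.62% rose and 6.1% fell in WT. Klf4, a KLF factor downstream of LIF, rose in both: it was at 491 and 475 CPM at day 7 against 106 and 123 at day 0 in the mutant (2.08 ± 0.316, adjusted p = 0.00118) and at 537 and 367 against 121 and 182 CPM in WT (1.58 ± 0.311, adjusted p = 0.00710). Tet2, a 5-methylcytosine oxidase, rose in the mutant, at 205 and 187 CPM at day 7 against 68.2 and 70.1 at day 0 (1.51 ± 0.459, adjusted p = 0.0447). Klf2, another KLF factor, rose in WT, at 516 and 444 CPM at day 7 against 214 and 258 at day 0 (1.03 ± 0.289, adjusted p = 0.0357), as did Tdh, threonine dehydrogenase (0.63 ± 0.164, adjusted p = 0.0251). Dppa2 and Dppa4, partner proteins that bind bivalent promoters, fell in both genotypes. Dppa4 was at 63.8 and 69.3 CPM at day 7 against 271 and 218 at day 0 in the mutant (-1.88 ± 0.180, adjusted p = 8.13e-05) and at 71.9 and 76.5 against 131 and 162 CPM in WT (-0.98 ± 0.176, adjusted p = 0.00477). Dppa2 differed by -1.83 ± 0.338, adjusted p = 0.00365, in the mutant and by -1.40 ± 0.334, adjusted p = 0.0177, in WT. All these p are edgeR's, adjusted over all genes.

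Of 18 genes of the formative and primed states, 10 fell and 0 rose at day 7 in each genotype. Of all genes, 6.96% fell at day 7 in the mutant and 6.1% in WT. At day 1 the number that fell was 5 in the mutant (0.716% of all genes fell) and 1 in WT (0.0716%). At day 2 it was 7 in the mutant (1.21%) and 7 in WT (0.996%), and 0 rose on either day. The median log2 fold change at day 7 was -2.15 in the mutant and -2.39 in WT, and Fgf5, with a count of 0 in all day 7 libraries, lies below it on any scale. Utf1, a chromatin-associated factor of stem cells, was at 21.7 and 26.4 CPM at day 7 against 592 and 479 at day 0 in the mutant (-4.48 ± 0.552, adjusted p = 0.000387 in edgeR's fit) and at 52.4 and 54.4 against 302 and 511 CPM in WT (-2.93 ± 0.514, adjusted p = 0.00425). Pou3f1, also called Oct6, was at 1.18 and 0.908 CPM at day 7 against 23.0 and 20.3 at day 0 in the mutant (-4.37 ± 0.717, adjusted p = 0.00179) and at 0.629 and 0.562 against 55.9 and 8.51 CPM in WT (-5.75 ± 0.769, adjusted p = 0.00101). Of 6 genes known from other work as repressed by Prdm14 or linked to it, 4 fell at day 7 in each genotype: the methyltransferases Dnmt3a and Dnmt3b, their cofactor Dnmt3l and the FGF receptor Fgfr2. Dnmt3l was at 14.1 and 17.4 CPM at day 7 against 433 and 274 at day 0 in the mutant (-4.49 ± 0.526, adjusted p = 0.000294) and at 133 and 124 against 328 and 1028 CPM in WT (-2.40 ± 0.478, adjusted p = 0.00734). Fgfr2 was at 1.22 and 1.20 against 19.0 and 15.1 CPM in the mutant (-3.81 ± 0.700, adjusted p = 0.00351) and at 1.11 and 1.20 against 17.3 and 13.4 CPM in WT (-3.73 ± 0.698, adjusted p = 0.00570). Fgfr1 and Uhrf1 did not pass, at -0.02 ± 0.256, adjusted p = 0.978, and 0.65 ± 0.345, adjusted p = 0.242, in the mutant and 0.01 ± 0.256, adjusted p = 0.976, and 0.67 ± 0.345, adjusted p = 0.217, in WT. Dnmt3a, Dnmt3b and Dnmt3l are counted in both lists.

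For each of the 8 genes the tested genes with the most similar course over the 17 libraries were sought among 10106 genes of at least 5 CPM on average. The 8 genes themselves were left out of these candidates. The measure was the root mean square difference of log2 CPM after each gene was centred on its own mean. A smaller value is more alike, and a gene that varies little has close neighbours for that reason. The nearest gene was Slc18b1 (0.25) for Nanog, Ift52 (0.14) for Esrrb, Arhgef10l (0.27) for Tfcp2l1, Lama1 (0.27) for Tbx3, Cpt1a (0.26) for Prdm14, Fkbp5 (0.16) for Zfp42, Srrt (0.15) for Nr0b1 and Serpinb1a (0.48) for Spic, each with its difference in log2 units in brackets. Next came Rnd1 and Hs6st1 for Nanog, Taf6l and Tmem184b for Esrrb, Jam2 and AI464131 for Tfcp2l1, Pcsk6 and Pecam1 for Tbx3, Smtnl2 and Jam2 for Prdm14, Asf1b and Mcph1 for Zfp42, Atad3a and Lmnb2 for Nr0b1, and S1pr1 and Calb2 for Spic. Among the 8 genes themselves, Prdm14 and Tfcp2l1 were the closest pair, at 0.27, and Spic was at least 0.89 from each of the other 7. The 17 libraries share their days and genotypes, so these values describe likeness over this design only.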

How the data were processed

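Total RNA was sequenced for 17 libraries, grouped by the genotype and day in their titles. The authors deposited 1 table of raw counts per gene symbol, with 0 sample columns left unused. Reads had been aligned to mm10 with STAR, per the submitters' processing notes, which also name deepTools; the versions, the counting tool, its strand setting and its annotation were not given in the sources used here. Library totals were 47350441 to 56138844 counts, and 2692 genes had a count of 0 throughout. At such depth the spread between libraries, a biological coefficient of variation of 0.333, and not counting error, sets the precision.

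With edgeR 4.0.16 in R 4.3.3 (TMM, filterByExpr on the 8 groups), 1 quasi-likelihood fit with a coefficient per group gave 16 contrasts. P-values are two-sided and Benjamini-Hochberg adjusted over the 15365 genes within each contrast. The method was tested on simulated data. Fold changes come from the fit and differ slightly from ratios of mean CPM. Alternatives were DESeq2 1.42.0, RLE size factors, a stricter filter (1 CPM in 4 libraries) and none, only the groups compared, replicate blocks, and leaving libraries out. The likeness of genes uses log2 CPM with a prior count of 2, computed from the deposited counts. Positions and exon lengths are from GENCODE M21 (GRCm38) and promoters from RefSeq (GRCm38.p6).

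All 8 genes are named in each contrast. Each also has its 3 nearest genes named, among those outside the 8, of at least 5 CPM and without predicted-gene symbols. Gene lists have up to 4 called genes named by adjusted p. The members, the gene lists and the libraries said to stand apart were chosen with earlier results of these data known, and the motifs after the promoters had been seen.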

Additional observations from a re-analysis of the deposited data

How the results depend on the processing

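Among the calls at day 7, the rises of Spic and Tfcp2l1 in both genotypes and of Nanog in the mutant passed under each of the 25 alternatives. No value of the 8 genes called with all libraries changed sign under any of them. Fitting only the groups compared, with 2 libraries a side, gave 0, 0 and 2 of 8 genes called in WT at days 1, 2 and 7 (1, 4 and 4 in the fit of all libraries) and 5 and 7 in the mutant at days 2 and 7 (3 and 4), where all but Zfp42 passed at day 7. Over all genes it called 0, 0 and 133 in WT and 1748 and 5556 in the mutant on those days. The fit of all libraries called 449 and 2176 in the mutant at days 2 and 7. In WT at day 1, RLE size factors, no filter, the stricter filter and the fit without both WT libraries that stood apart gave 2 each, and DESeq2 gave 4. Without those libraries, 5 were called in the mutant at day 2, 1 for day 7 against day 2 and 1 for the averaged genotype difference (each 0 with all libraries, apart from the mutant's 3). Leaving out 1 library at a time gave 0 to 4 genes in WT at day 1, 2 to 4 at day 2 and 4 to 6 at day 7, 0 to 4, 1 to 4 and 3 to 6 in the mutant, and 0 to 2 for the averaged genotype difference.

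Same-numbered WT libraries deviated from their group means together in 6 of 6 pairs of days (r = 0.236 to 0.744), those of the mutant by more than 0.1 in 1 of 6 (r = -0.342 to 0.174). The labels do not say what a number marks, and over both genotypes the numbers were not taken to pair the samples; the WT libraries did deviate by number. With a replicate block, 2 genes were called in WT at day 1 (42 over all genes) and 1 in the mutant at day 1 (116 over all genes). With a block on WT replicate number alone, 4 were called in WT at day 1, 5 at day 2 (Esrrb in addition) and 6 at day 7 (Esrrb and Tbx3 in addition; Tbx3 also with the replicate block), 1 for day 7 against day 2 (Spic), 1 for the genotypes at day 0 (Spic) and 2 for their average (Zfp42 and Spic).

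Among values that had not passed, some changed sign with 1 library left out. In WT at day 1 Esrrb was 0.41 with all libraries and -0.066 to 0.88 with 1 left out, Tbx3 was 0.78 and -0.39 to 2.23, Nr0b1 -0.35 and -0.69 to 0.082, and Zfp42 -0.14 and -0.65 to 0.36. Zfp42 was 0.06 and -0.31 to 0.55 in WT at day 2, -0.15 and -0.52 to 0.34 in WT at day 7, -0.02 and -0.11 to 0.13 in the mutant at day 1, and -0.10 and -0.19 to 0.021 in the mutant at day 2. Nr0b1 was -0.25 and -0.58 to 0.19 in WT at day 2. The averaged genotype difference was 0.07 and -0.023 to 0.19 for Esrrb and 0.07 and -0.015 to 0.18 for Nr0b1, and the difference in response at day 1 was -1.25 and -1.92 to 0.031 for Spic. Without both WT libraries that stood apart, Zfp42 in WT at day 2 was -0.31 and the averaged genotype differences were -0.11 for Esrrb, -0.023 for Prdm14 (0.16 with all libraries) and -0.051 for Nr0b1, and with the WT replicate block that of Tbx3 was 0.20. The later steps, the genotypes on single days and the difference in response gave 1800 values over these alternatives, of which 141 changed sign and 3 passed. They are given as counts, a choice made after they were seen. The causes of these changes were not tested.

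Over all genes, DESeq2 called over 1.5 times as many in each of these comparisons, such as 3314 against 2176 in the mutant and 3236 against 1955 in WT at day 7. Over the alternatives other than leaving out 1 library, the counts ran from 116 to 1077 in the mutant and 0 to 320 in WT at day 1 (216 and 31 with the fit of all libraries), 453 to 1748 and 0 to 1489 at day 2 (449 and 332), 2006 to 5556 and 133 to 4007 at day 7 (2176 and 1955), 0 to 315 and 29 to 1070 for the later steps (10 and 184), 1 to 1465, 5 to 1838, 0 to 134 and 0 to 313 for the genotypes on days 0, 1, 2 and 7 (43, 64, 11 and 15) and 1716 to 3643 on average (1973). With 1 library left out they ran from 1 to 315 in the mutant and 0 to 83 in WT at day 1, 45 to 584 and 36 to 552 at day 2, 680 to 2421 and 742 to 2381 at day 7, 0 to 10 and 30 to 292 for the later steps, 1 to 110, 10 to 241, 0 to 12 and 2 to 23 for the genotypes on days 0, 1, 2 and 7 and 1105 to 2048 on average. The shares of all genes given beside the members' counts move with these counts.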
